A study of Mus musculus with 180 samples.

Results

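The CD11b+CD48+SK cells of this series were divided here by Birc5, which encodes survivin. The sides were chosen by the measured Birc5 level alone: Birc5+ cells were the 19 of 47 with Birc5 at 1 TPM or more, and Birc5- cells were the 28 below it. TPM is the share of a gene among the transcripts of a cell, corrected for length and scaled so that each cell sums to 1000000. The 47 cells belong to 180 single cells sequenced by Smart-Seq2, with 56 FL HSC, 41 WT-MPP and 36 BM HSC. Each cell was 1 library. All mice were on the C57BL/6 background. BM HSC and WT-MPP came from 8-week-old Hoxb5LSL/+ mice and FL HSC from Hoxb5LSL/+ embryos at Day14.5, so all 3 carried the Hoxb5-EGFP cassette at Rosa26 behind a stop, without Cre. The CD11b+CD48+SK cells were donor-derived cells from the bone marrow of primary recipients at Week 8 post-transplantation. Per the study's methods, the donor MPP carried Mx1cre and the same cassette, Cre was driven by the Mx1 promoter and induced with pIpC, and the hosts were lethally irradiated. The Mx1 promoter is not particular to blood cells, and pIpC is itself an inducer of interferon. By the methods, pIpC was given only in the days around transplantation, well before the cells were taken at Week 8. The gate held lineage-negative GFP+ cells with Sca1, c-kit, CD48 and CD11b on their surface, and that of FL HSC held CD150+ cells with Sca1, c-kit and CD11b. The labels give bone marrow as the source of every cell, FL HSC included.

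Survivin is a subunit of the chromosomal passenger complex, in which it anchors the kinase Aurora B (Aurkb) with Incenp and borealin (Cdca8) to the centromere and later to the midzone of the dividing cell. It also belongs by its BIR domain to the inhibitor of apoptosis (IAP) family. In dividing cells its transcript is low in G1 and high in G2 and mitosis, together with the mitotic cyclins, so that it is widely used as a marker of late cell cycle. Genes of DNA replication are induced earlier, at the passage from G1 to S phase, mostly under E2F factors, whereas many mitotic genes are held down in resting cells by the DREAM complex at promoter elements called CHR. Haematopoietic stem cells of the adult bone marrow are mostly quiescent, and those of the fetal liver divide actively.

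The labels tie no cell to an animal. Each population was therefore 1 sample, no test between the sides was possible, and values are descriptions. A difference is the mean of log2(TPM+1) over Birc5+ cells minus the mean over Birc5- cells, and a gene was counted as higher or lower where it reached 2 in either direction. The pseudocount makes the differences of low genes smaller. A gene counted as detected in a cell at a TPM of 1 or more, and brackets after a percentage hold the 95% exact interval of Clopper and Pearson, for counting error in cells and nothing else. FL HSC were divided by Birc5 in the same way. They share no cell with the CD11b+CD48+SK cells and were not used by the rule, and they stand beside each result.

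Birc5 lies on the plus strand of chromosome 11 (chr11:117849251-117855743 in GRCm38), where no other annotated gene overlaps it. The share of Birc5+ cells was 40.4% among CD11b+CD48+SK cells (26.4 to 55.7%, 19 of 47). It was 37.5% in FL HSC (24.9 to 51.5%, 21 of 56) and 9.76% in WT-MPP (2.72 to 23.1%, 4 of 41). In BM HSC Birc5 reached a TPM of 1 in 0 of 36, and 3 cells, taken as the limit that a count of 0 allows, would be 8.33% (exact upper limit 9.74%).

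**Figure D1:**
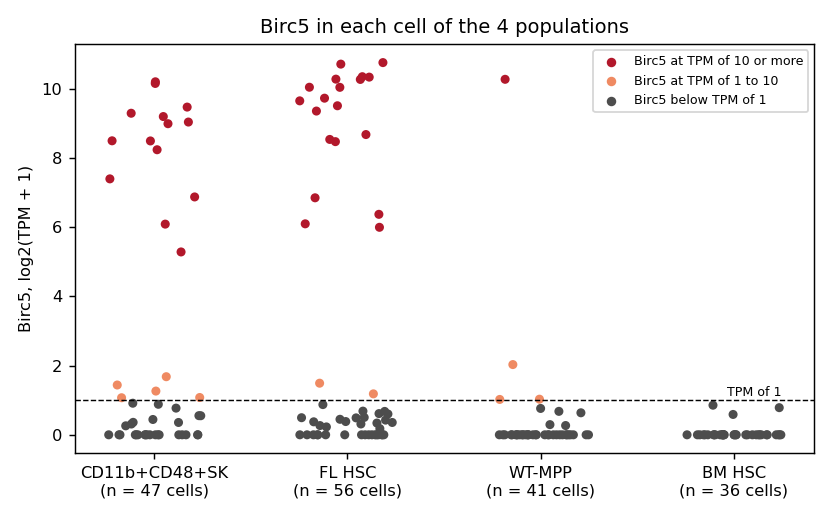
Birc5 in each cell of the 4 populations, as log2(TPM+1). Each point is 1 cell, the dashed line marks a TPM of 1, and colours mark cells below a TPM of 1, at 1 to 10 and at 10 or more. The 14 high CD11b+CD48+SK cells lie between 37.9 and 1172 TPM, apart from the other 33 cells, and 19 FL HSC, 1 WT-MPP and 0 BM HSC are at 10 TPM or more.

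The cells did not spread evenly over the threshold. Of the CD11b+CD48+SK cells, 18 had Birc5 at 0, 10 lay above 0 and below 1 TPM, 5 lay between 1.1 and 2.2 TPM and 14 between 37.9 and 1172 TPM. The last cell outside the rule had 0.882 TPM and the first inside it 1.1 TPM, so these neighbours hardly differed. The gap in the data lay higher, between 2.2 and 37.9 TPM. The 5 cells just inside the rule are therefore kept apart where it matters, and the counts of the cell cycle lists are also given for the 14 cells at 10 TPM or more.

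Genes of the cell division machinery were detected in larger numbers in the Birc5+ cells. Of 152 genes in 6 hand-written lists for mitosis (Birc5 left out), Birc5+ cells had a median of 81 detected, with a lowest of 33 and a highest of 123. Birc5- cells had a median of 38.5, with a lowest of 21 and a highest of 70. In 10 of the 19 Birc5+ cells more mitosis genes were detected than in any Birc5- cell, and no Birc5- cell reached the Birc5+ median. The 14 cells at 10 TPM or more ranged from 41 to 123 with a median of 96. The 5 cells between 1.1 and 2.2 TPM ranged from 33 to 70 with a median of 49, entirely within the range of the Birc5- cells. The 10 cells above 0 and below 1 TPM had a median of 46, close to that of the 5 cells, and the 18 cells at 0 had a median of 36.

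By the number detected per cell, the genes of DNA replication divided the cells less sharply. By difference the order was the other way, with a median of 1.81 for replication and 1.33 for the mitosis lists. Within the strata described below, both medians were 0.97. Of 60 such genes, Birc5+ cells had a median of 49 detected (20 to 57) and Birc5- cells a median of 29 (10 to 53). Of the 28 Birc5- cells, 2 were at or above the Birc5+ median, and 2 of the 19 Birc5+ cells were at or below the Birc5- median. Some Birc5- cells thus had as many replication genes detected as most Birc5+ cells. Pcna, the sliding clamp of the DNA polymerases, was detected in all 28 Birc5- cells and all 19 Birc5+ cells. Its level had a median of 429 TPM in Birc5- cells (1.57 to 1413) and of 896 TPM in Birc5+ cells (3.66 to 2053), so that the sides overlapped over nearly their whole range. Among the 14 cells with the most Birc5 transcript, a pair combined 93 and 97 mitosis genes with only 32 and 31 replication genes.

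**Figure D2:**
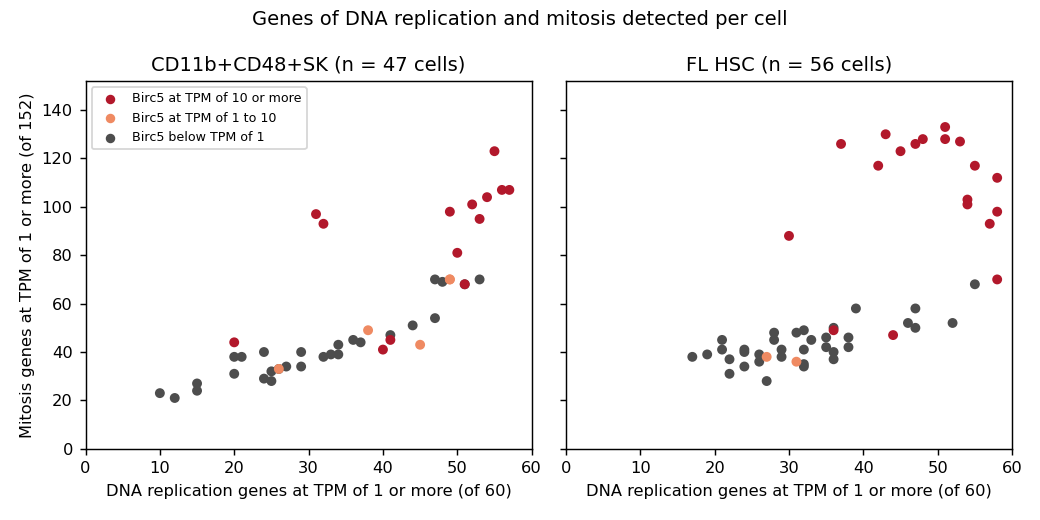
Number of DNA replication genes (of 60, x axis) against number of mitosis genes (of 152, y axis) at a TPM of 1 or more, with 1 point per cell and Birc5 in colour. CD11b+CD48+SK cells are on the left and FL HSC on the right. Of the Birc5+ cells, 10 of 19 on the left and 17 of 21 on the right lie above every Birc5- cell on the y axis, whereas the sides overlap along the x axis.

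Both counts went with the total number of genes detected in a cell. Spearman's rho over the 47 cells, which share the sequencing of their own library on both axes, was 0.816 between mitosis genes and all genes detected, 0.841 between replication genes and all genes and 0.882 between the 2 lists. The number of genes detected had a median of 4900 in Birc5+ cells (3039 to 6791) and of 4347 in Birc5- cells (3369 to 5220), and 7 Birc5+ cells exceeded every Birc5- cell. Reads per cell cannot be had from TPM. The sequencing depth is unknown, and a larger RNA content cannot be told apart from deeper sequencing. The differences below are therefore also given within strata: they were taken separately among cells below and among cells at or above the median of 4514 genes and then averaged. The strata did not level the genes detected: in the upper one Birc5+ cells still had a median of 5306 against 4626, and in the lower one 4029 against 4102. The lower stratum held 5 Birc5+ and 18 Birc5- cells and the upper stratum 14 and 10.

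Over the 8230 genes detected in at least 20% of the cells of either side, Birc5 left out, 264 were higher in Birc5+ cells by 2 or more (3.21%) and 44 were lower (0.535%). The median difference was 0.26, and 62.9% of the genes lay above 0, the share against which the counts above 0 in the lists below are to be read. In FL HSC 274 of 8836 genes were higher (3.1%) and 29 lower (0.328%), with a median of 0.12. The 12 cell cycle lists supplied 341 kept genes with a median of 1.3, of which 84 were higher (24.6%) and 1 was lower. The 7889 genes outside them had a median of 0.22, with 180 higher (2.28%) and 43 lower. With the 14 cells at 10 TPM or more in place of the 19, 412 of 8382 kept genes were higher (4.92%) and 47 lower (0.561%). In that comparison 12 of 25 mitotic kinases and cyclins reached 2, 18 of 38 kinetochore genes, 14 of 37 spindle genes, 8 of 21 condensin and cohesin genes and 4 of 18 of the anaphase-promoting complex. DNA replication came to 26 of 59, G1 cyclins and E2F genes to 5 of 19, homologous recombination to 7 of 25, chromatin proteins to 8 of 25 and histones to 18 of 62. Since Birc5 chose the cells and all these genes were measured in the same cells, the counts describe the split and are no test of it. The counts also rest on the scale. Within strata 120 genes were higher and 98 lower, with a median of 0.01 that averaged opposite shifts (-0.28 in the lower stratum and 0.24 in the upper one), and the cell cycle lists kept a median of 0.91 with 36 of 341 genes higher. Of the 264 genes, all 264 kept their sign within strata and 99 still reached 2, and of the 44 lower genes 44 and 36 did. Both sets were chosen from the same cells, so the kept signs are no support for them.

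Among the partners of survivin in the chromosomal passenger complex, Cdca8 was detected in 14 of 19 Birc5+ cells (73.7%, 48.8 to 90.9%) and 7 of 28 Birc5- cells (25%, 10.7 to 44.9%). Its level had a lowest of 0, a median of 63.6 and a highest of 619 TPM in Birc5+ cells, and 0, 0 and 62.9 TPM in Birc5- cells, so that the Birc5+ median lay above every Birc5- cell. The difference was 3.86. The annotation places 9930104L06Rik over Cdca8 on the other strand, and the kit is not stated to keep strand, so that reads of the 2 cannot be told apart. The same holds for the named genes Cenpq, Nde1, Pno1, Psmc3ip, Rtp4 and Shmt1, which a protein-coding gene overlaps on the other strand, and for Asrgl1, Mxd4, Poc1a and Txnip, which an annotated antisense gene overlaps. Aurkb, the kinase of the complex, differed by 2.74 (0, 5.47 and 772 TPM against 0, 0 and 104 TPM), and Incenp, its scaffold, by 1.17. The median of the 3 partners was 2.74, and 2 of the 3 reached 2. In FL HSC the same 3 genes had a median of 6.01, led by Aurkb at 6.05, which was detected there in 16 of 21 Birc5+ and 1 of 35 Birc5- cells.

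Of the 29 mitotic kinases and cyclins, 26 were kept by detection on either side, which partly sets the count above 0. All 26 were above 0 and 9 reached 2, with a median of 1.56. Ccnb2, a B-type cyclin that activates Cdk1 at mitotic entry, was detected in 13 of 19 Birc5+ cells and 5 of 28 Birc5- cells. Its level was 0, 40.5 and 1609 TPM (lowest, median and highest) in Birc5+ cells and 0, 0 and 127 TPM in Birc5- cells, a difference of 4.0. Cdk1, the kinase that drives mitosis, differed by 3.37, with 16 and 12 cells detected. Ccna2, the A-type cyclin of S and G2 phase, differed by 3.16, and Mad2l1, of the spindle checkpoint, by 3.33. Ccnb1, the other main B-type cyclin, and Plk1, the Polo-like kinase, lay lower in the list. Ccnb1 was detected in 7 Birc5+ and 3 Birc5- cells with a difference of 1.51, and Plk1 in 5 and 1 with a difference of 1.07. Both were much further apart in FL HSC, at 4.01 and 5.17.

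The kinetochore links the chromosome to the spindle, and 13 of its 37 kept genes reached 2, with 36 above 0 and a median of 1.73. Spc25, of the Ndc80 complex that holds the microtubule, had 0, 54.1 and 886 TPM in Birc5+ cells and 0, 0 and 406 TPM in Birc5- cells, a difference of 3.87. Pmf1, of the Mis12 complex, was detected in all 19 Birc5+ cells (1.37, 260 and 691 TPM) and 16 of 28 Birc5- cells (0, 1.73 and 396 TPM), a difference of 4.18. Cenpw, Cenpq, Cenpm and Cenph, of the inner centromere network, differed by 4.07, 3.90, 3.70 and 3.55. Their sides overlapped in range, as a few Birc5- cells also held them at a high level. Within strata Pmf1 came to 2.65, Cenpm to 2.41 and Cenph to 1.96, below the limit of 2.

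Of the 42 genes in the list of spindle and cytokinesis genes 34 were kept. All 34 were above 0 and 7 reached 2, with a median of 1.3. A gene could be kept by detection in Birc5+ cells alone, so the count above 0 is partly set by the filter. Cdca3, which takes part in the destruction of Wee1 at mitotic entry, had the largest difference of the list. It was detected in 14 of 19 Birc5+ cells (0, 57.8 and 876 TPM) and 3 of 28 Birc5- cells (0, 0 and 5.28 TPM), a difference of 4.31. Nusap1, a spindle protein, was detected in 10 of 19 Birc5+ cells and 0 of 28 Birc5- cells, where 3 cells would be 10.7% (exact upper limit 12.3%). Among condensin, cohesin and topoisomerase genes 4 of 20 reached 2. Top2a, the topoisomerase that untangles sister chromatids, was detected in 13 of the 14 cells at 10 TPM or more, in 3 of the 5 cells between 1.1 and 2.2 TPM and in 4 of the 28 Birc5- cells. Its level was 0, 24.3 and 225 TPM against 0, 0 and 71.3 TPM, a difference of 3.29. Mki67, which encodes the proliferation antigen Ki-67, was detected in 10 of those 14 cells, 1 of the 5 and 0 of the 28, with a highest Birc5- level of 0.591 TPM. The cohesin subunits Stag2 and Smc1a lay at -0.93 and 0.07. In the list of the anaphase-promoting complex 2 of 18 reached 2. Its activator Cdc20 (3.10) and the enzyme Ube2c (2.75) reached 2, whereas the subunits Anapc1, Anapc2 and Anapc7 lay at -0.80, -0.86 and -0.59.

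**Figure D3:**
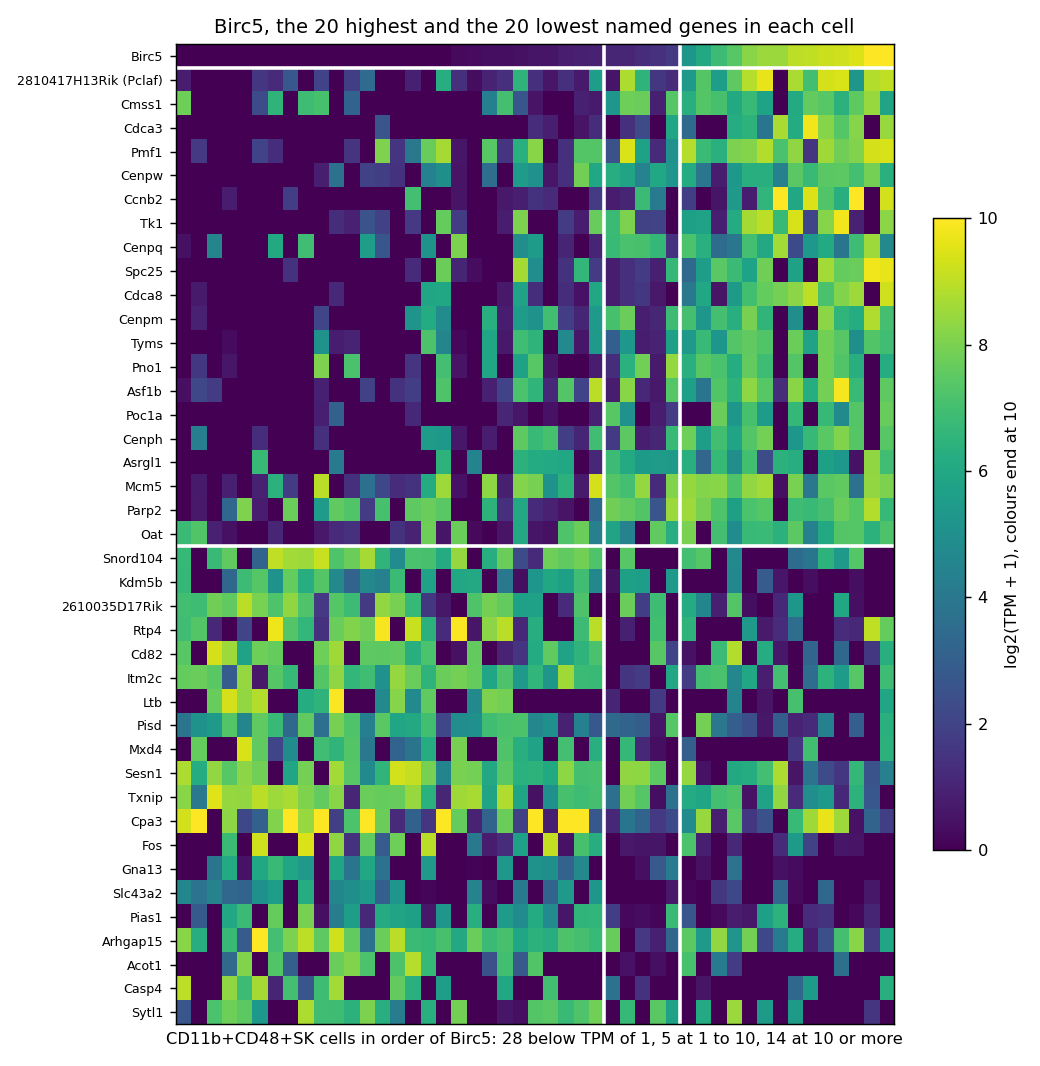
Level of Birc5 and of the 20 highest and 20 lowest named genes (rows) in each of the 47 CD11b+CD48+SK cells (columns, in order of Birc5), as log2(TPM+1) with colours that end at 10. White lines divide the 28 cells below 1 TPM, the 5 at 1 to 10 and the 14 at 10 or more. Ccnb2 was detected in 10 of the 14 cells, 3 of the 5 and 5 of the 28, and Mcm5 in 13, 5 and 16. Levels of every named gene varied within each side, although Pmf1 and Cenpq were detected in all 19 Birc5+ cells.

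In DNA replication 26 of 59 kept genes reached 2 (44.1%), with 55 above 0 and a median of 1.81. Tk1 and Tyms, which make thymidine nucleotides, differed by 3.97 and 3.66. Tk1 had 0, 70.1 and 887 TPM in Birc5+ cells and 0, 0 and 262 TPM in Birc5- cells, and Afmid overlaps it on the other strand. Mcm5, a subunit of the replicative helicase, was detected in 18 of 19 Birc5+ cells (0.326, 256 and 386 TPM) and 16 of 28 Birc5- cells (0, 1.69 and 658 TPM), a difference of 3.50 that came to 2.12 within strata. The highest Birc5- cell thus held more Mcm5 than any Birc5+ cell. On the log2 of mean TPM plus 1 the Mcm5 difference was 1.11. Cdc45, which completes the helicase, differed by 3.45, Prim1, the primase, by 3.20 and Rrm2, of ribonucleotide reductase, by 3.07. The origin recognition genes Orc2, Orc3, Orc4 and Orc5 lay between -0.37 and 0.01. All 5 cells between 1.1 and 2.2 TPM had Mcm5 detected and 4 of 5 had Tk1, against 16 and 9 of the 28 Birc5- cells.

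The clustered histone genes, whose transcripts accumulate in S phase, had a median of 1.04, with 58 of 61 above 0 and 9 at 2 or more. Most encode near-identical proteins, and reads could be divided between copies in the authors' estimation, so single values such as Hist1h1b at 2.40 are uncertain. Birc5+ cells had a median of 38 of the 66 histone genes detected (21 to 58) and Birc5- cells 27.5 (9 to 45). 2810417H13Rik, now named Pclaf, encodes a partner of PCNA at the replication fork and had the largest difference of the named genes after Birc5 itself. It was detected in 17 of 19 Birc5+ cells (0, 160 and 820 TPM) and 14 of 28 Birc5- cells (0, 0.919 and 90.8 TPM), a difference of 4.90. The annotation places Trip4 over it on the other strand. Asf1b, a histone chaperone, differed by 3.61, or 2.05 within strata.

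Of the G1 cyclins and E2F genes 2 of 19 reached 2. Ccne1, cyclin E1 of the G1 to S passage, was detected in 9 of 19 Birc5+ cells and 0 of 28 Birc5- cells, with a highest Birc5- level of 0.493 TPM and a difference of 2.72. E2f8, a repressor of the E2F family, differed by 2.02. Cdk4, Myc and Ccnd2, which act earlier in G1, lay at 0.15, -0.30 and -0.31. Cdk4 and Myc were detected in every cell of both sides. The list of CDK inhibitors and quiescence genes had a median of -0.09, with 7 of 16 above 0. Cdkn1b (p27) lay at -0.03, with 7 of 19 and 10 of 28 cells detected, and Cdkn2c (p18) at -1.35.

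The mitosis genes had larger differences in FL HSC than in CD11b+CD48+SK cells, and the replication genes had similar ones. The median over the mitosis lists was 1.33 in CD11b+CD48+SK cells, where 37 of 138 genes reached 2 (26.8%), and 2.41 in FL HSC, where 91 of 150 did (60.7%). For 111 of the 138 mitosis genes kept in both, CD11b+CD48+SK cells had the smaller difference, and the median of the gap, CD11b+CD48+SK minus FL HSC, was -1.28. With the 14 and 19 cells at 10 TPM or more set against the cells below 1 TPM, the medians were 1.58 and 2.72, and 114 of 142 genes had the smaller difference in CD11b+CD48+SK cells, with a median gap of -1.22. For DNA replication the medians were 1.81 and 1.79, and 33 of 59 genes had the smaller difference in CD11b+CD48+SK cells. Over all genes kept in both, 3554 of 7574 had the smaller difference in CD11b+CD48+SK cells, with a median gap of 0.07. With the cells at 10 TPM or more this was 3595 of 7731, with a median gap of 0.08. The replication count was thus nearer to that of all genes than the mitosis count was. No test of the difference between the populations was possible with 1 sample of each, and they also differed in tissue, age, transplantation, the sort gate and the Hoxb5 cassette, which Cre had opened after pIpC in the CD11b+CD48+SK cells and which stayed without Cre in FL HSC. The Birc5+ sides also differed in Birc5 itself, with a median of 300 TPM in CD11b+CD48+SK cells and 725 TPM in FL HSC. The part of this in the gap was not tested. In FL HSC the number of genes detected had a median of 5442 in Birc5+ and 4997 in Birc5- cells. The picture for replication rests on this scale. In the lower and upper strata the mitosis medians were 0.56 and 1.37 in CD11b+CD48+SK cells and 1.55 and 2.71 in FL HSC, and the replication medians were 0.77 and 1.24 against 1.61 and 1.41, so that both lists were then smaller in CD11b+CD48+SK cells.

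**Figure D4:**
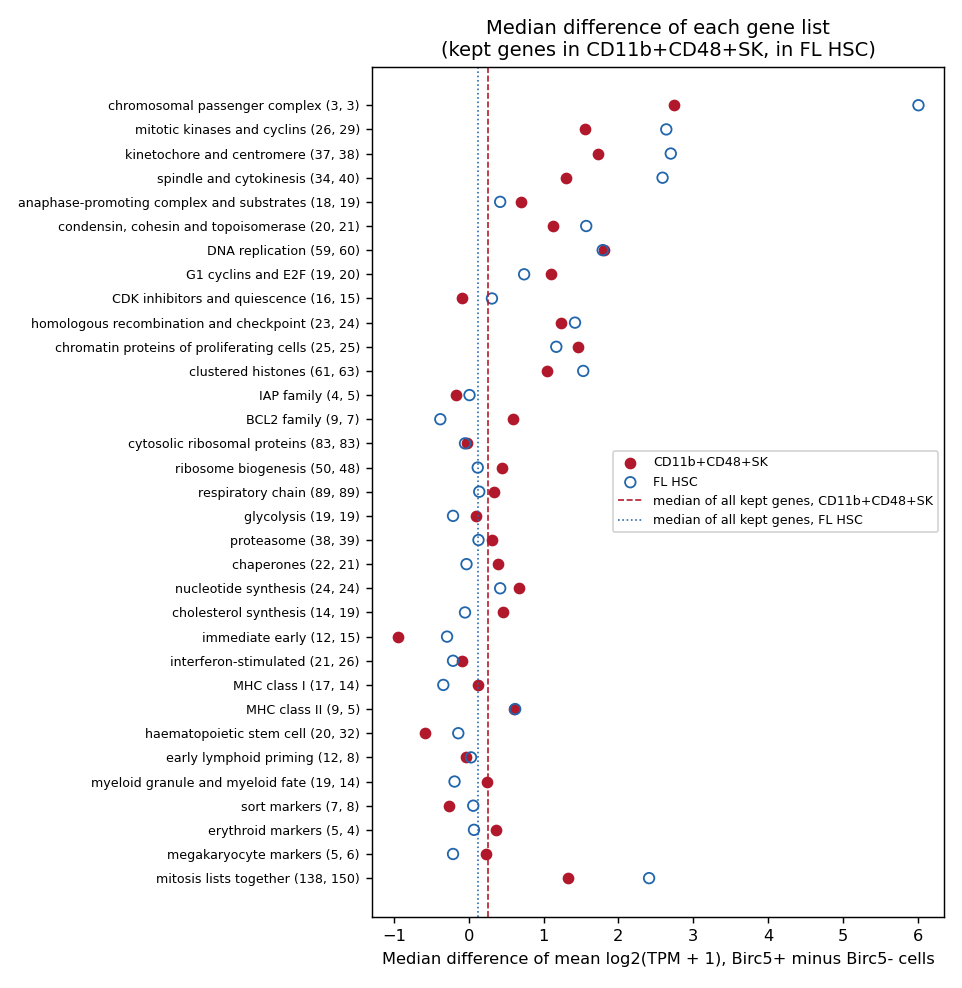
Median difference of each gene list between Birc5+ and Birc5- cells, in CD11b+CD48+SK cells (filled) and FL HSC (open), with the number of kept genes of each in brackets. The lines mark the medians over all kept genes, 0.26 and 0.12. The mitotic lists lie further to the right in FL HSC, except the anaphase-promoting complex (0.70 and 0.42), and DNA replication lies at 1.81 and 1.79.

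Across the 7574 genes kept in both populations, the differences had a Spearman's rho of 0.203, which is over genes and not over replicates. Within the cell cycle lists rho was 0.619 over 331 genes, and outside them 0.146 over 7243 genes. Of the genes higher by 2 or more, 89 were so in both populations, which is 33.7% of those of the CD11b+CD48+SK cells and 32.5% of those of FL HSC. Among all kept genes, 3.21% were higher in CD11b+CD48+SK cells and 3.1% in FL HSC. Of these 89, 64 belonged to the cell cycle lists and 25 did not. The hand-written lists do not hold every gene of cell division, as the 25 include Apitd1, of the centromere, and Nde1, of the centrosome. Of the lower genes 1 was shared, Sytl1, 2.27% and 3.45% of the respective genes. Sytl1, a partner of Rab27 in vesicle release, lay at -2.17 and -2.29.

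**Figure D5:**
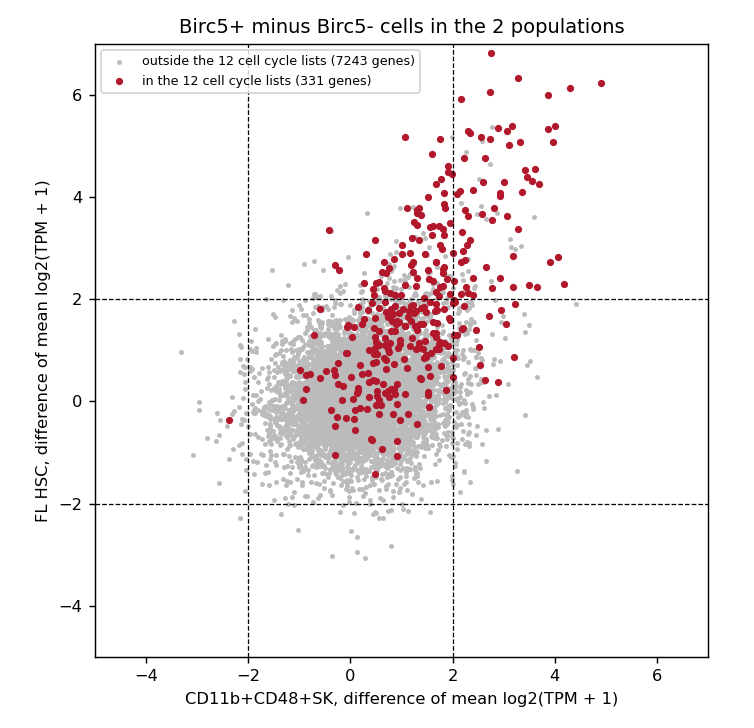
Difference between Birc5+ and Birc5- cells in CD11b+CD48+SK cells (x axis) against FL HSC (y axis), in mean log2(TPM+1), with 1 point per gene kept in both and dashed lines at 2 and -2. The 331 genes of the cell cycle lists lie mostly in the upper right, with 64 of them above 2 on both axes, and the 7243 others form a cloud around 0 with 25 above 2 on both.

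Of the 25 shared genes outside the cell cycle lists, 5 were among the 15 highest named ones. Poc1a, a centriole protein, was detected in 12 of 19 Birc5+ cells (0, 32.7 and 215 TPM) and 3 of 28 Birc5- cells (0, 0 and 7.5 TPM), and differed by 3.59 in CD11b+CD48+SK cells and 3.62 in FL HSC. Nde1, of the dynein pathway at the centrosome, differed by 3.35 and 3.05, Psmc3ip, a cofactor of recombination, by 3.15 and 3.03, and Apitd1, which encodes the centromere protein CENP-S, by 3.22 and 2.98. Shmt1, which supplies one-carbon units for thymidylate, differed by 3.13 and 3.19, but by 1.15 within strata in CD11b+CD48+SK cells. On the log2 of mean TPM plus 1, Poc1a differed by 5.50 in CD11b+CD48+SK cells and the other 4 by less than 2. These were Nde1 at 1.17, Psmc3ip at 1.95, Apitd1 at 1.80 and Shmt1 at 1.35.

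Other high genes had differences under 2 in FL HSC. Cmss1 was detected in 17 of 19 Birc5+ cells (0, 107 and 349 TPM) and 9 of 28 Birc5- cells (0, 0 and 218 TPM), a difference of 4.41 against 1.91 in FL HSC. Filip1l overlaps it on the other strand. Pno1, a factor of small ribosomal subunit assembly, differed by 3.65 against 0.48 in FL HSC and by 1.80 within strata. Asrgl1, an asparaginase, differed by 3.52 against 0.79, Oat, ornithine aminotransferase, by 3.45 against 0.72, and Akr1e1, an aldo-keto reductase, by 3.27 against -1.36. Each was detected in 17 of 19 Birc5+ cells, against 9, 12 and 12 of 28 Birc5- cells. The highest levels were 321 and 110 TPM for Asrgl1, 252 and 223 TPM for Oat, and 379 and 357 TPM for Akr1e1. On the log2 of mean TPM plus 1 the differences came to 1.88, 1.22 and 1.20. Fgfr2 overlaps Oat on the same strand. All 20 of the highest named genes had the same sign in FL HSC and 15 of them reached 2 there. Of the 15 highest named genes outside the cell cycle lists, 13 had the same sign and 5 reached 2. Among all genes kept in FL HSC, 57.2% lay above 0 and 3.1% reached 2. Those shares were 92.7% and 40.9% in the cell cycle lists, which held 14 of the 20 highest, and 55.7% and 1.51% outside them.

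The promoters of the higher genes were read for 3 kinds of short sequence known from cell cycle genes, in the 250 bases before the start on both strands. These were the CHR (TTTGAA or TTCGAA), the CCAAT box (CCAAT) and the E2F site (TTTCCCGC, TTTGGCGC, TTTGGCGG or TTTCCCGG). Of the 68 genes of the cell cycle lists that were higher by 2 or more and had a promoter in the RefSeq table, 35.3% held a CHR and 63.2% a CCAAT box. The shares were 15.3% and 41.5% over the 6646 kept genes with a promoter, and 19.6% and 37.5% over all 27025 genes of the table. Of the 146 higher genes outside the cell cycle lists with a promoter, 16.4% held a CHR and 37.7% a CCAAT box, close to the kept genes. An E2F site was held by 22.4% of the 49 replication genes with a promoter, 8.66% of the 127 mitosis genes and 6.24% of the kept genes. The shares depended on the window: with the 50 bases after the start included, they were 42.9%, 13.4% and 7.6% for E2F, and the CHR share of the mitosis genes was 58.3% in place of 37%, against 17.1% of the kept genes. A match of letters is not a bound site, and the lists were written by function, so the shares describe the lists as much as these cells.

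The 100 bases before the start are shown for Birc5 and for 5 genes that are higher in Birc5+ cells, which were picked after the search because they hold such letters. They are from RefSeq in GRCm38.p6, read 5′ to 3′ on the strand of the gene, with every match in capitals. Birc5 (chr11:117849137-117849236, plus strand) holds TTTCCCGG 39 bases before the start. Cdk1 (chr10:69352913-69353012, minus strand) and Top2a (chr11:99024190-99024289, minus strand) hold CHR and CCAAT letters together, as does Asf1b (chr8:83955594-83955693, plus strand). Ccnb2 (chr9:70421555-70421654, minus strand) holds 3 CCAAT boxes, and Cenpm (chr15:82244337-82244436, minus strand) a CHR beside an E2F site. The starts are those of RefSeq. GENCODE M21 places the start of Asf1b at 83955507 and of Cenpm at 82244748, so by it their windows lie inside the gene.
Birc5: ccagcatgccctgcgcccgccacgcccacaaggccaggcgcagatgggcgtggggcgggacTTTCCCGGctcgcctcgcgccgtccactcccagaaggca
Cdk1: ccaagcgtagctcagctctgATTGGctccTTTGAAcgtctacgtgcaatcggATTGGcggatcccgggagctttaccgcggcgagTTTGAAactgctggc
Top2a: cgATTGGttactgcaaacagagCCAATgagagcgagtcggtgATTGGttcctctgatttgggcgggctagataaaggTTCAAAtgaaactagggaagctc
Asf1b: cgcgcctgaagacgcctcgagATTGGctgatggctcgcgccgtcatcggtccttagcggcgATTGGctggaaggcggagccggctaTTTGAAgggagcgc
Ccnb2: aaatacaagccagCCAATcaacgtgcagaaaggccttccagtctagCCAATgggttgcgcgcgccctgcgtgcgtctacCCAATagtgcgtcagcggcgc
Cenpm: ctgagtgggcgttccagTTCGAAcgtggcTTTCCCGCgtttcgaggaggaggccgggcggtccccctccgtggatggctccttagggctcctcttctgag
ATTGG and TTCAAA are CCAAT and TTTGAA read on the other strand.

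Of the 44 genes that were lower in Birc5+ cells, 1 (2.27%) was also lower in FL HSC, where 0.328% of all kept genes were. Kdm5b, a demethylase of histone H3, was detected in 5 of 19 Birc5+ cells (26.3%, 9.15 to 51.2%) and 22 of 28 Birc5- cells (78.6%, 59 to 91.7%). Its level was 0, 0 and 50.7 TPM in Birc5+ cells and 0, 35.4 and 196 TPM in Birc5- cells, a difference of -3.09 that was -1.05 in FL HSC. Mxd4, which opposes Myc at E-boxes, differed by -2.55, Sesn1, a sestrin under p53 and FoxO, by -2.41 and Txnip, an inhibitor of thioredoxin and of glucose uptake, by -2.38. Txnip was detected in 16 of 19 and 27 of 28 cells, at a median of 41.5 against 207 TPM (0 to 333 and 0.366 to 738). Txnip was the 1 gene of the cell cycle lists at -2 or less, where it stands among the quiescence genes. On the log2 of mean TPM plus 1, Mxd4, Sesn1 and Txnip lay at -2.21, -0.90 and -1.69. In FL HSC, on the main scale, these 3 genes lay at -0.36, -0.48 and -0.37. Snord104, a small nucleolar RNA, had the lowest difference of the named genes (-3.32, with 0.97 in FL HSC), and its short length makes its TPM uncertain. Pisd (-2.57) has near-identical copies between which reads could be divided. Of the 20 lowest named genes, 19 were kept in FL HSC, 16 of those had the same sign there and 1 reached -2. Of all genes kept in FL HSC, 57.2% lay above 0.

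The immediate early genes, which respond within minutes to signals or to handling, had a median of -0.94, with 4 of 12 above 0. Fos was detected in 5 of 19 Birc5+ cells (0, 0.464 and 145 TPM) and 15 of 28 Birc5- cells (0, 1.57 and 717 TPM), a difference of -2.38. Zfp36, which destabilizes mRNA, lay at -1.67, Jun at -1.45 and Dusp1, a phosphatase of MAP kinases, at -1.11, whereas Jund lay at 0.82. In FL HSC the list had a median of -0.29. Of the interferon-stimulated genes 8 of 21 were above 0, with a median of -0.09, and 2 reached -2, Rtp4 at -2.80 and Isg20 at -2.15.

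Genes of stem cell identity were also on the lower side, without any reaching 2. The haematopoietic stem cell list had a median of -0.58 with 3 of 20 kept genes above 0, beside a median of 0.26 over all genes, and -0.14 in FL HSC. Hoxb5, for which reads of the cassette and of the endogenous gene cannot be told apart, was detected in 17 of 19 Birc5+ cells (0.303, 35 and 175 TPM) and 26 of 28 Birc5- cells (0, 87.7 and 191 TPM), a difference of -1.44. Its ranges overlapped fully while the Birc5+ median was the lower one. Meis1, a partner of Hox proteins, lay at -1.36, Pdzk1ip1 at -1.46 and Hlf at -0.81, the last detected in 1 of 19 and 7 of 28 cells. Ly6a, which encodes Sca1, lay at -0.99 in CD11b+CD48+SK cells and at -1.09 in FL HSC. Among the other genes of the sort, Cd48 lay at -0.26, Kit at -0.31 and Itgam, for CD11b, at 0.25. Cd48 was detected in every cell of both sides, and Itgam in 9 of 19 and 8 of 28.

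The myeloid list had a median of 0.25 with 12 of 19 above 0, and 1 reached 2. This was Mpo, the myeloperoxidase of granulocyte progenitors, which was detected in 19 of 19 Birc5+ cells (3.01, 362 and 3125 TPM) and 24 of 28 Birc5- cells (0, 45.6 and 4282 TPM), a difference of 2.31. The highest cell was a Birc5- cell. Csf2ra, a receptor chain for GM-CSF, lay at -1.88. The early lymphoid list had a median of -0.04. Dntt, the terminal transferase of lymphoid progenitors, lay at -0.71, with a median of 148 against 303 TPM, and Il2rg, the common cytokine receptor chain, at -1.40. Ltb, lymphotoxin beta, differed by -2.58 with 5 of 19 and 14 of 28 cells detected. Cpa3, the carboxypeptidase of mast cells and their progenitors, differed by -2.38 and reached 9063 TPM in a Birc5- cell, whereas Mcpt8, a protease of basophils, differed by 2.68.

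Cytosolic ribosomal proteins had a median of -0.03 over 83 genes, with 1 at 2, Rps19bp1, which is not itself a ribosomal protein. Ribosome biogenesis had a median of 0.45 with 37 of 50 above 0, the respiratory chain 0.34, the proteasome 0.31, chaperones 0.39 and nucleotide synthesis 0.67 with 3 of 24 at 2 or more, which were Shmt1, Umps and Dck. Among the IAP genes other than Birc5, 1 of 4 was above 0: Xiap lay at 0.79, Birc6 at -0.14, Birc2 at -0.19 and Birc3 at -1.33. In the BCL2 family 5 of 9 were above 0, with Bad at 1.28, Bcl2 at 0.59, Mcl1 at -0.08 and Bbc3, which encodes the death-promoting protein PUMA, at -1.04. None of the kept genes of these last 2 families reached 2 in either direction, and 3.21% and 0.535% of all kept genes did.

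Markers of other cell types were read for both sides, where the deposited data list them. The hand-written lists held 17 mature myeloid, 15 T and NK cell, 12 B cell, 18 erythroid, 12 megakaryocyte and 10 mast and basophil markers. Those that the data do not list could not be read. The summed level of 12 mature myeloid markers had a median of 0 on both sides (highest 829 TPM in Birc5+ and 471 TPM in Birc5- cells), with Ltf, Camp, Emr1, Csf1r, Fcgr1 and Cd14 below 1 TPM in every CD11b+CD48+SK cell. That of 8 T and NK cell markers had medians of 0.447 and 0.326 TPM (highest 424 and 515), with Cd3g and Klrb1c below 1 TPM in every cell. For 7 B cell markers the medians were 113 and 99.3 TPM (0 to 529 and 0 to 407), with Cd79a, Vpreb3, Cd22 and Rag1 below 1 TPM in every cell. For 11 erythroid markers they were 524 and 734 TPM (71.2 to 2481 and 2.45 to 4210), with Hba-a1, Epor and Rhag below 1 TPM. For 11 megakaryocyte markers they were 187 and 239 TPM (0 to 434 and 0 to 1142), with Gp1bb and Ppbp below 1 TPM, and for 7 mast and basophil markers 111 and 210 TPM (0.637 to 1949 and 0 to 9249), with Cma1 below 1 TPM. Every other marker in these sums reached 1 TPM in at least 1 CD11b+CD48+SK cell. For B cells these were Cd79b, Vpreb1 and Igll1, and for T and NK cells Cd3d, Cd247, Cd4, Lck, Klrd1 and Gzmb. For mature myeloid cells they were S100a8, S100a9, Cd68, C1qa, C1qb and C1qc. For erythroid cells they were Hba-a2, Hbb-b1, Hbb-b2, Klf1, Tfrc, Car2, Gata1 and Aqp1. The part of any of these markers in the differences was not tested.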

How the data were processed

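Per the labels, cDNA of sorted single cells was amplified with a whole-transcriptome kit. The authors aligned reads to mm10 with HISAT2 (version 2.1.0) and SAMtools (version 0.1.19) and deposited TPM estimated with StringTie (version 1.3.4). The annotation behind the table is not given in the sources used here. The table lists 14825 genes and sums to 1000000 TPM per cell. Of its 181 columns, 1 has no sample and was not used, and 0 columns were identical. No cell was filtered out, and doublets were not sought among sorted single cells. With no animal named, no test was made. Depth is unknown.

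Means of log2(TPM+1) were compared for genes detected in at least 20% of either side, with pandas 2.3.3, scipy 1.17.1 and numpy 2.4.6 under Python 3.11.15 (plots: matplotlib 3.10.9). The calculation was run on a random split of these cells, with chosen genes raised by a set amount in some of them. That amount fixed the outcome, so the run checked the arithmetic and not the results. Named genes were Birc5, members of the 36 hand-written lists, Top2a, Mki67, the 20 genes at each end among the 4758 detected in at least 50% of either side, and the 15 at each end outside the 12 cell cycle lists. The split, members and lists were chosen with earlier results of these data known, and Rps6k genes and pseudogenes were dropped from 2 lists after the files were read. Of the symbols, 14758 match RefSeq symbols of GRCm38.p6, older ones included. Gene positions are from GENCODE M21. Promoter sequences from RefSeq were checked for direction in 500 genes: transcript starts were found forward in 460 and in reverse in 0.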

Additional observations from a re-analysis of the deposited data

How the results depend on the processing

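No paired analysis was possible because the results come from no test and replicate numbers only name cells. The median of the mitosis lists stayed between 0.62 and 2.19 and that of DNA replication between 0.93 and 2.56 under all 11 alternatives. With Birc5 above 0 against 0, DNA replication had a median of 2.13. With Birc5 at a TPM of 10 or more against below 1, 412 genes were higher. A split by Top2a gave 27 lower genes and 2.39 for DNA replication, and a split by Mki67 gave 0.93 for DNA replication and 1.53 for histones. A pseudocount of 0.1 gave 964 higher and 180 lower genes and medians of 2.19 (mitosis), 2.56 (replication) and 1.62 (histones), and a pseudocount of 10 gave 22 and 1 genes and 0.62, 1.06 and 0.47. On the log2 of mean TPM plus 1, 256 genes were lower, the median over all genes turned to -0.07, replication came to 0.98 and histones to 1.5. Without a filter the median over all genes was 0.00. A filter at 50% of either side gave 1.84 for mitosis. Median-ratio scaling gave 384 higher and 27 lower genes, 2.09 for replication and a median over all genes of 0.43, and turned ribosomal proteins to 0.34, interferon-stimulated genes to 0.20 and sort markers to 0.06. Within strata by genes detected, 120 genes were higher and 98 lower, with 0.97 for mitosis and for replication. The causes were not tested.

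Further list medians changed sign. These were B cell (-0.63) and mast and basophil (-0.90) markers with Birc5 above 0, megakaryocyte (-0.26) and T and NK cell (0.04) markers at a TPM of 10 or more, and megakaryocyte markers by Top2a (-0.06). By Mki67 they were ribosome biogenesis (-0.08), MHC class II (-0.10), the myeloid list (-0.09), megakaryocyte (-0.63), T and NK cell (0.08) and mast and basophil (-0.25) markers. On the log2 of mean TPM they were the BCL2 family (-0.15), cholesterol synthesis (-0.36), MHC class II (-0.20), erythroid (-0.48) and megakaryocyte (-0.44) markers. They were also mast and basophil markers without a filter (-0.05), erythroid markers at 50% (-0.27), and ribosome biogenesis (-0.06) and glycolysis (-0.24) within strata. The 20 highest and 20 lowest genes kept their signs throughout. They were chosen as the extremes of these same cells, so the kept signs are no support for them. A filter cannot change a gene's difference, so those settings gave the same values. The highest still reached 2 in 15 to 20 genes and the lowest in 1 to 20.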

Other observations

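Among the other populations, 1 WT-MPP cell had a high Birc5 level, at 1232 TPM. It had 77 of the 152 mitosis genes and 16 of the 60 DNA replication genes detected, among 3278 genes in all. Ccnb2 was at 3054 TPM, Ccnb1 at 737 TPM, Cdca3 at 198 TPM, Cdk1 at 116 TPM and Top2a at 49.9 TPM in this cell, whereas Tk1, 2810417H13Rik (Pclaf) and Mki67 were listed at 0. As 1 cell, it has no replicate.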
